A study of Mus musculus with 60 samples.

Results

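The interferon-stimulated genes described here are 39 genes, taken by symbol from a fixed list of members, and all 39 are present in each of the 4 expression tables, which list 54343 symbols apiece. The members comprise 3 transcription factors, 4 sensors of nucleic acid, 4 Ifit genes, 5 oligoadenylate synthetase genes, Isg15 and its protease gene Usp18, 10 genes of other antiviral proteins, 7 genes of interferon-inducible GTPases, 3 genes of antigen processing and the chemokine gene Cxcl10. They were followed in bulk RNA sequencing of liver and of inguinal white adipose tissue, a subcutaneous fat depot, from 2 lines of diet-induced obese mice. In each line and tissue 5 libraries came from floxed mice given mGIPR-Ab/P1, a peptide-antibody conjugate that joins a GLP-1 peptide to an antibody against the GIP receptor. A further 5 came from knockout mice given vehicle, and 5 from floxed mice given vehicle. The floxed mice were Glp1rfl/fl in one line and Giprfl/fl in the other, and the knockouts were Glp1rWnt1-/- and GiprSyn-/-, with deletions named for Wnt1 and Syn1, which are active in neural cells. The labels give neither age nor sex of the mice, nor any link between a liver and a fat library of the same mouse, and no group combines the knockout with the conjugate. All 60 libraries thus came from obese mice, and every group had the vehicle or the conjugate on a floxed or deleted background, with no lean and no wild-type group.

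Interferons are secreted when cells sense foreign or displaced nucleic acid, or by activated T and natural killer cells in the case of interferon gamma. Type I interferons signal through the receptor encoded by Ifnar1 and Ifnar2 to a complex that holds STAT2 and IRF9 and binds the interferon-stimulated response element (ISRE) of genes such as Ifit1, Oas1a and Rsad2. Interferon gamma signals through the receptor encoded by Ifngr1 and Ifngr2 to factors that bind gamma-activated sites (GAS) and induce Irf1, and genes of GTPases such as Igtp and Gbp2, of the immunoproteasome and of Cxcl10 are strongly induced along this route. Many members respond to both types. In liver, Kupffer cells, the resident macrophages, are one source and target of these signals, and adipose tissue holds macrophages and, near lymph nodes, many lymphocytes. In bulk tissue, fewer cells of a type and less RNA per cell cannot be told apart.

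Promoter windows from RefSeq on the GRCm38.p6 build, from 250 bases before the gene's start to 50 bases after it, were found for 31 of the 39 members. The ISRE was searched as a pair of GAAA separated by any 2 bases, on both strands, where the opposite strand reads as a pair of TTTC, and it occurred in the windows of 19 of the 31 members, against 3.99% of the 27025 genes with a window. The GAS was searched as TTCNNNGAA, which reads the same on both strands, and it occurred in 7 of the 31 members, against 9.55% of all genes. Both patterns occurred in 5 of the 31, against 0.614% of all genes. A match describes the letters of these windows and is not evidence of binding. The windows below are shown because the results turn on these genes. Capitals mark ISRE matches, and in Igtp also a GAS match directly upstream of the ISRE match, with 2 bases between them. The Oasl1 and Psmb9 windows hold neither pattern.
Oasl1, chr5:114922990-114923289, plus strand: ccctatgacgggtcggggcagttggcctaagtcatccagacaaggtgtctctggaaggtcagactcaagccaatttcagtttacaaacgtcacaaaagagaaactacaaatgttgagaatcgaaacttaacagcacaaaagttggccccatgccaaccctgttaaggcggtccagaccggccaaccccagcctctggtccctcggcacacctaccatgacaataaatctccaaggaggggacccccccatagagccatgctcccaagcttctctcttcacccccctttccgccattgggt
Ifih1, chr2:62646206-62646505, minus strand: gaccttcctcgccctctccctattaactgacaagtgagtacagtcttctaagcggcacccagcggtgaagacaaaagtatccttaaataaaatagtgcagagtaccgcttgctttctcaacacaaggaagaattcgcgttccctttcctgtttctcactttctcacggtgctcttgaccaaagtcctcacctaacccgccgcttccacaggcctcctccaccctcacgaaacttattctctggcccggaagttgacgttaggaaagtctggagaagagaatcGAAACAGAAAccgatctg
Ifit3, chr19:34583279-34583578, plus strand: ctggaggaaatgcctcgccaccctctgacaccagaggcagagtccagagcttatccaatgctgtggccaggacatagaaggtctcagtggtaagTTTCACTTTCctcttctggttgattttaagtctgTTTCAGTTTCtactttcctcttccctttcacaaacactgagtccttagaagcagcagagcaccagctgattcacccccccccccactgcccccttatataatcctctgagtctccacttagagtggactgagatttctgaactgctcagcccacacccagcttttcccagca
Ifit3b, chr19:34607707-34608006, plus strand: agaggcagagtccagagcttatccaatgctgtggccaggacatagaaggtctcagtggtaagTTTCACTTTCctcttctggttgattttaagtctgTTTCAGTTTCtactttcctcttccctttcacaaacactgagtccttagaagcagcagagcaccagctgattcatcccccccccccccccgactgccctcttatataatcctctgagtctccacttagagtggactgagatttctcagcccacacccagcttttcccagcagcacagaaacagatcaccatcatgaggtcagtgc
Igtp, chr11:58199306-58199605, plus strand: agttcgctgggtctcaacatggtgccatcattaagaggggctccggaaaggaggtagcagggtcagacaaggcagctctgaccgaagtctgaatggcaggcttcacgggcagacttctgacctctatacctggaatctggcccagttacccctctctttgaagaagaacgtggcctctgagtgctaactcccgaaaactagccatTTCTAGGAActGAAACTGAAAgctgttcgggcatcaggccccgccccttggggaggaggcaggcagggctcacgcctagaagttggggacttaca
Psmb9, chr17:34187281-34187580, minus strand: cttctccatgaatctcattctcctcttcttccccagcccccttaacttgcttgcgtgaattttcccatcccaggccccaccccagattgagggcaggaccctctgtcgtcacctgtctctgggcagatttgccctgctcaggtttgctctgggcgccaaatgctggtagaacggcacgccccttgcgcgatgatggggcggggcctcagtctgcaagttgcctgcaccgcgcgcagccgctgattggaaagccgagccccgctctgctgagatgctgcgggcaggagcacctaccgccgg
The Psmb9 window shares 275 bases with that of Tap1, which lies on the opposite strand and is transcribed the other way. Ifit3 and Ifit3b carry the same pair of ISRE matches, beginning at positions -156 and -122 relative to the gene's start in Ifit3 and at -188 and -154 in Ifit3b.

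Several members resemble other genes, and the deposited values do not show how shared fragments were divided. Of the stretches of 50 bases in the transcripts of a member, 57.6% of those of Oas1a were also found in Oas1g, 51.2% of those of Ifit3 in Ifit3b, and 44.5% of those of Ifit3b in Ifit3. The values of Oas1a, Ifit3 and Ifit3b are therefore uncertain as to the member of the family. Igtp shared 11.8% of its stretches with Irgm2, and Ifit1 shared 7.06% with Ifit1bl2.

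The values are FPKM, fragments scaled to the length of the transcript and the size of the library, computed by the authors. No library pair held identical values. The estimated depth was 31.6 to 57.3 megafragments in liver and 30.03 to 64.4 megafragments in fat. In liver of the Glp1r line depth moved with the treatment, at 33.9 ± 1.59 megafragments in conjugate libraries and 49.7 ± 2.94 megafragments in vehicle libraries (SD, n = 5 each), with no overlap. Transcripts of the targeted genes could not check the knockouts, since Glp1r stayed at or below 0.356 FPKM in every library, Gipr stayed at or below 0.0149 FPKM in liver, and the deletions were directed to neural cells. Gipr was 2.16 to 7.46 FPKM in fat. Hepatocyte markers in liver and adipocyte markers in fat were at the levels of these tissues, with a mean log2(FPKM + 1) of at least 11.3 for the hepatocyte list in every liver library and of at least 9.76 for the adipocyte list in every fat library. In Glp1rfl/fl vehicle fat replicate 1 the hepatocyte list scored 4.80, where the other 29 fat libraries scored at most 2.73. In fat a mean log2(FPKM + 1) above 5 for the B cell list was seen in replicates 1 and 3 of the Glp1rWnt1-/- group and replicate 2 of the Glp1rfl/fl vehicle group, and in the other line in replicate 1 of the Giprfl/fl conjugate group and replicates 1 and 5 of the GiprSyn-/- group.

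One liver library stood apart in these genes. The mean log2(FPKM + 1) over the 39 members was 2.21, 2.27, 2.32, 2.23 and 3.99 in replicates 1 to 5 of the GiprSyn-/- livers, against 2.46, 2.56, 2.83, 2.84 and 2.81 in the Giprfl/fl vehicle livers. The 4 other knockout livers lay below all 5 vehicle livers, and replicate 5 lay above them all. In the Giprfl/fl conjugate livers the score was 2.19, 2.44, 2.84, 2.30 and 2.36, so replicate 3 was at the level of the upper vehicle livers. In the Glp1r line no liver stood apart, with scores of 2.04 to 2.35 in conjugate livers, 1.94 to 2.64 in Glp1rWnt1-/- livers and 2.19 to 2.53 in vehicle livers. Since replicate 5 of the GiprSyn-/- livers enters the estimate of the spread for both contrasts of its table, the calls among the members in that table are given with and without it.

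**Figure D1:**
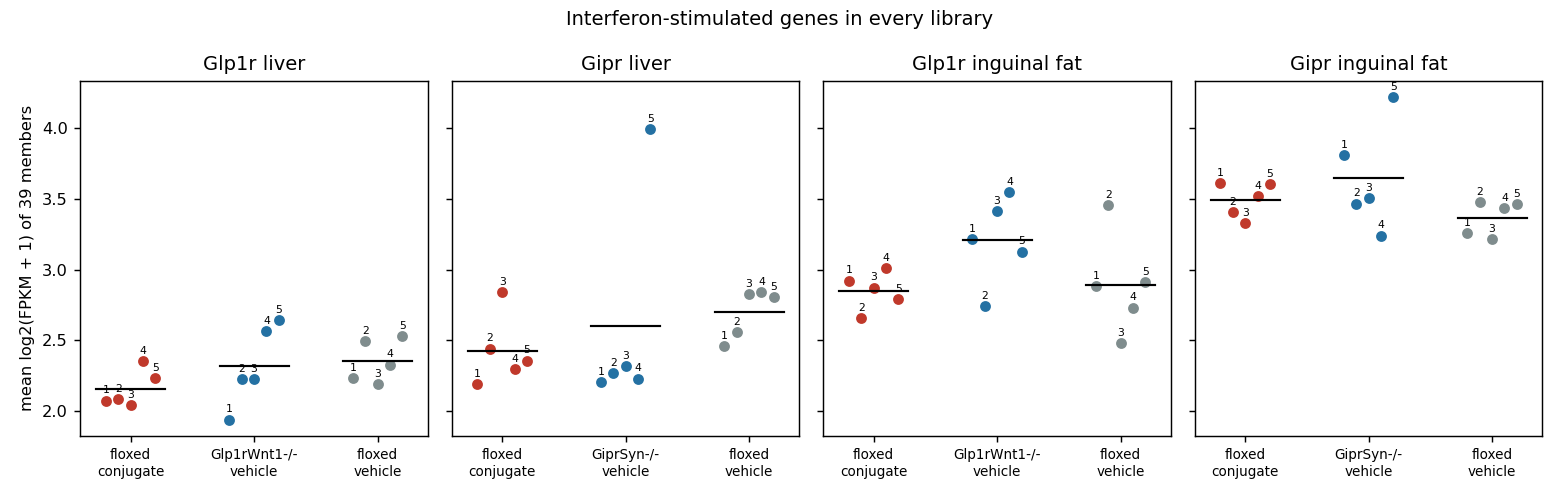
Mean log2(FPKM + 1) over the 39 interferon-stimulated genes in each library (points, numbered by replicate) of the 3 groups of each table, with the group mean as a line. GiprSyn-/- liver replicate 5 is at 3.99 while the other 4 knockout livers are at 2.21 to 2.32, and GiprSyn-/- fat replicate 5 is the highest fat library at 4.22.

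In GiprSyn-/- liver replicate 5 the interferon-stimulated genes were raised to unequal degrees. Its FPKM over the median of the other 4 knockout livers was 1.54 to 19.4 across the 39 members, with a median of 3.83, and 33 of the 39 were at least 2-fold higher, against 7.37% of the 11189 genes tested in this table with a ratio. At least 5-fold higher were 12 members, against 1.70% of those genes, and 35 members were highest of the 15 libraries of the table in this one, against 16.1%. These figures describe 1 library and carry no test, and the library was singled out by the same genes.

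The GTPases of the GBP and IRG families, which act at the membranes of vacuoles that hold pathogens, were highest, with ratios of 5.26 to 19.4 and all 7 at least 5-fold. Igtp, encoding an IRG family GTPase also called IRGM3, was 9.25, 11.5, 11, 13 and 217 FPKM in replicates 1 to 5 of the knockout livers, against 16, 17.5, 18.9, 18.7 and 23.3 FPKM in the vehicle livers. Gbp2, encoding a guanylate-binding protein, was 2.54, 2.51, 2.86, 1.84 and 41.6 FPKM in the knockout livers, against 3.64, 3.40, 6.02, 5.31 and 6.34 FPKM in the vehicle livers. For both genes the first 4 knockout livers lay below every vehicle liver and replicate 5 lay far above.

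Zbp1, which encodes a sensor of Z-form nucleic acid that can start cell death, rose 15.7-fold over the median of the other 4, and Cxcl10, which draws T cells through the receptor CXCR3, 13.1-fold. The antigen processing genes were 4.52-fold for Tap1, the peptide transporter of class I presentation, 6.5-fold for Psmb8 and 7.29-fold for Psmb9, both subunits of the immunoproteasome. Psmb9 was 9.37, 6.5, 10.9, 9.72 and 69.6 FPKM in the knockout livers, against 10.5, 14.1, 18.4, 15.6 and 16.7 FPKM in the vehicle livers.

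The Ifit genes, the oligoadenylate synthetase genes, Isg15 and Usp18 had lower ratios in that library than every GTPase gene. They were not all below the antigen processing genes, with Usp18 at 4.80 and Tap1 at 4.52. Which type of interferon was at work was not tested. The 4 Ifit genes, whose proteins bind foreign RNA, had ratios of 2.84 to 4.69, the 5 oligoadenylate synthetase genes 2.23 to 4.08, and Isg15, which encodes a ubiquitin-like modifier, 4.30. Ifit3 was 6.07, 6.98, 8.07, 7.52 and 28.6 FPKM in the knockout livers, against 8.96, 12, 12.6, 16.6 and 14 FPKM in the vehicle livers. Rsad2, encoding the antiviral enzyme viperin, had a ratio of 1.97, Ifih1, the sensor of long double-stranded RNA also called MDA5, 1.70, and Irf9 1.54. Of the transcription factors, Irf7, which amplifies type I interferon, had the highest ratio at 5.28. Members with an ISRE match in the window had a median ratio of 3.95 (n = 19) and those without one 4.58 (n = 12), and members with a GAS match 6.5 (n = 7) against 3.74 without one (n = 24), with ranges that overlapped.

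**Figure D2:**
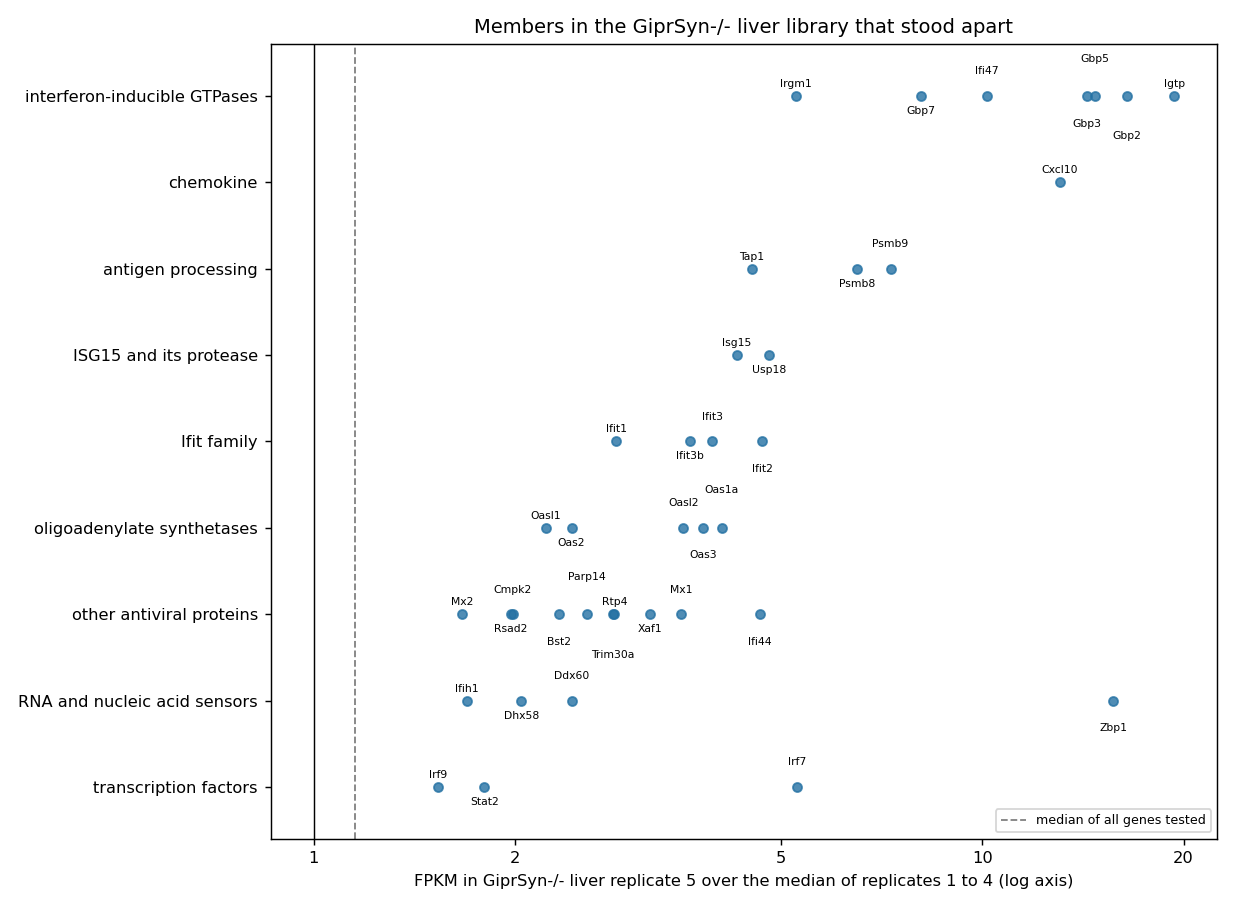
FPKM of each of the 39 members in GiprSyn-/- liver replicate 5 over its median in replicates 1 to 4 (horizontal log axis), by class (rows), with the median of all genes tested as a dashed line. The 7 GTPase genes lie between 5.26 and 19.4, and the Ifit and oligoadenylate synthetase genes between 2.23 and 4.69.

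Other genes of the pathway moved with the members in that library. Irf1 was 45.4 FPKM in replicate 5 and 14.3 to 18.9 FPKM in the other knockout livers. Ifng, the gene of interferon gamma, was 0.872 FPKM in replicate 5, and 0 to 0.0907 FPKM in the other 4, while Ifnb1 was listed at 0 in all livers. Cell type markers moved too. Of the 10 T and natural killer cell markers 9 were at least 2-fold higher, with a list score of 1.75 in replicate 5 against 0.301 to 0.430 in the other 4, all 5 Kupffer cell markers were at least 2-fold higher, with a score of 6.45 against 3.65 to 3.87, and 7 of 8 macrophage markers were, with a score of 6.26 against 4.19 to 4.27. No hepatocyte marker was 2-fold higher. The part of these cells in the members' values was not tested.

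In liver of Giprfl/fl mice the conjugate went with lower values of most members, and 1 of the 37 tested passed. Testing was limited to genes with 1 FPKM or more in 5 or more of a table's 15 libraries. Calls rest on limma, run on log2(FPKM + 1), the scale of every fold change against vehicle here. A call needs an adjusted p (Benjamini-Hochberg, over all genes tested) under 0.05. The ratios of GiprSyn-/- liver replicate 5 and the folds between tissues are plain ratios of FPKM. Fold changes were below 0 for 35 of the 37 members, with a median of -0.29, whereas 56.4% of all 11201 genes tested were below 0, with a median of -0.03. Called lower were 3.17% of all genes and called higher 1.17%. An unadjusted p under 0.05 was reached by 6 members, all lower, against 20.1% of all genes. Not tested were Oas3 and Mx1, which rarely reached 1 FPKM.

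The member called lower was Oasl1, an oligoadenylate synthetase-like gene whose product lacks synthetase activity and in mice restrains translation of Irf7. It was 2.20, 3.20, 4.05, 2.10 and 4.24 FPKM in the conjugate livers, against 4.56, 5.55, 6.87, 7.07 and 6.07 FPKM in the vehicle livers. Every conjugate liver lay below every vehicle liver. The log2 fold change was -0.78 ± 0.20 (SE), with an adjusted p of 0.0442 by limma. The call ended, with adjusted p of 0.0539 to 0.122, when any of conjugate replicates 1 to 4, knockout replicates 1 to 4 or vehicle replicates 2 to 5 was left out. It also ended when the 2 groups were fitted alone (adjusted p = 0.0519 by limma), where Ifit3b was the member called, and with no filter, a common sum or without the libraries of the higher number series (conjugate replicates 4 and 5 and vehicle replicate 5), at adjusted p of 0.109, 0.0724 and 0.0983. Without those 3 libraries the median over the members was -0.15.

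Of the members not called, Ifih1 and Ifit3b also showed no overlap between the groups, as did 3.57% of all genes in the lower direction. Ifit3b was 1.62, 1.60, 1.89, 1.13 and 1.64 FPKM in the conjugate livers, against 2.12, 2.56, 2.57, 3.24 and 3.02 FPKM in the vehicle livers, at -0.52 ± 0.22 and an adjusted p of 0.193 by limma. Rsad2 was 1.51, 1.56, 2.99, 1.17 and 1.57 FPKM in the conjugate livers, against 2.52, 2.70, 3.33, 3.51 and 3.42 FPKM in the vehicle livers, at -0.59 ± 0.17 and an adjusted p of 0.0591 by limma. For Rsad2 only conjugate replicate 3 reached into the range of the vehicle livers, and the same library held Cxcl10 at 10.5 FPKM where the other 4 conjugate livers held 1.41 to 2.45 FPKM and the vehicle livers 3.68 to 9.75 FPKM. By class, the median fold change was -0.46 for the Ifit genes, -0.38 for Isg15 and Usp18, -0.37 for antigen processing, -0.31 for the GTPases and -0.02 for the transcription factors.

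Without GiprSyn-/- liver replicate 5 the conjugate and vehicle libraries were the same but the estimated spread was smaller, and 6 of the 35 members then tested were called lower, against 3.70% of all genes. They were Oasl1, Ifit3b, Rsad2, Cmpk2, Irgm1 and Psmb9. The library left out was chosen by the values of these same genes, which by itself narrows their estimated spread. These 6 calls are therefore a description and give no separate support. Ifit3b had an adjusted p of 0.00953, Rsad2 of 0.0271 and Psmb9, at -0.64 ± 0.16, of 0.0369 by limma. Cmpk2 encodes a nucleotide kinase transcribed beside Rsad2.

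In GiprSyn-/- livers given vehicle none of the 37 members passed with all libraries, against 8.92% of all genes called lower and 1.44% called higher, and 3 members had an unadjusted p under 0.05, all lower, against 24.1% of all genes. Fold changes were below 0 for 28 of the 37 members, with a median of -0.06, against 73.8% of all genes with a median of -0.11. Rescaling the libraries by median of ratios moved the median of all genes to 0.01 and left 24 of 37 members above 0, so the direction rests on the scaling. The smallest p values were those of Rsad2 and Oasl1. Rsad2 was 1.55, 1.60, 1.66, 1.36 and 3.11 FPKM in the knockout livers, set against the vehicle values above, with a log2 fold change of -0.54 ± 0.17 and an adjusted p of 0.0519 by limma. Oasl1 was 3.36, 2.90, 3.16, 3.03 and 6.89 FPKM in the knockout livers, at -0.57 ± 0.20 and an adjusted p of 0.0887 by limma. For both genes replicates 1 to 4 lay below all vehicle livers and replicate 5 within their range.

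Without replicate 5 the fold change was below 0 for all 35 members tested, where 80.6% of all genes were below 0, with a median over the members of -0.44. Called lower were 14 members, against 13.1% of all genes, and none was called higher. By role they were Ifit1, Ifit2, Ifit3 and Ifit3b, Oasl1, Rsad2, Cmpk2 and Ifi44, the GTPase genes Igtp, Irgm1, Gbp3 and Gbp7, Psmb9 and Cxcl10. Igtp was at -0.70 ± 0.15 with an adjusted p of 0.00666, Oasl1 at -0.76 ± 0.16 with an adjusted p of 0.00704, Ifit3b at -0.54 ± 0.10 with an adjusted p of 0.00349, and Cxcl10 at -1.21 ± 0.37 with an adjusted p of 0.0427, by limma. With median of ratios 6 of the 35 were called lower, against 3.82% of all genes, and with a common sum 27 of 38 were, against 30.8%. Since the library left out was chosen by the values of these same genes, the 14 are a description of what the remaining 4 livers show. The conjugate and the knockout contrasts share the 5 vehicle livers, so their fold changes are not independent.

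**Figure D3:**
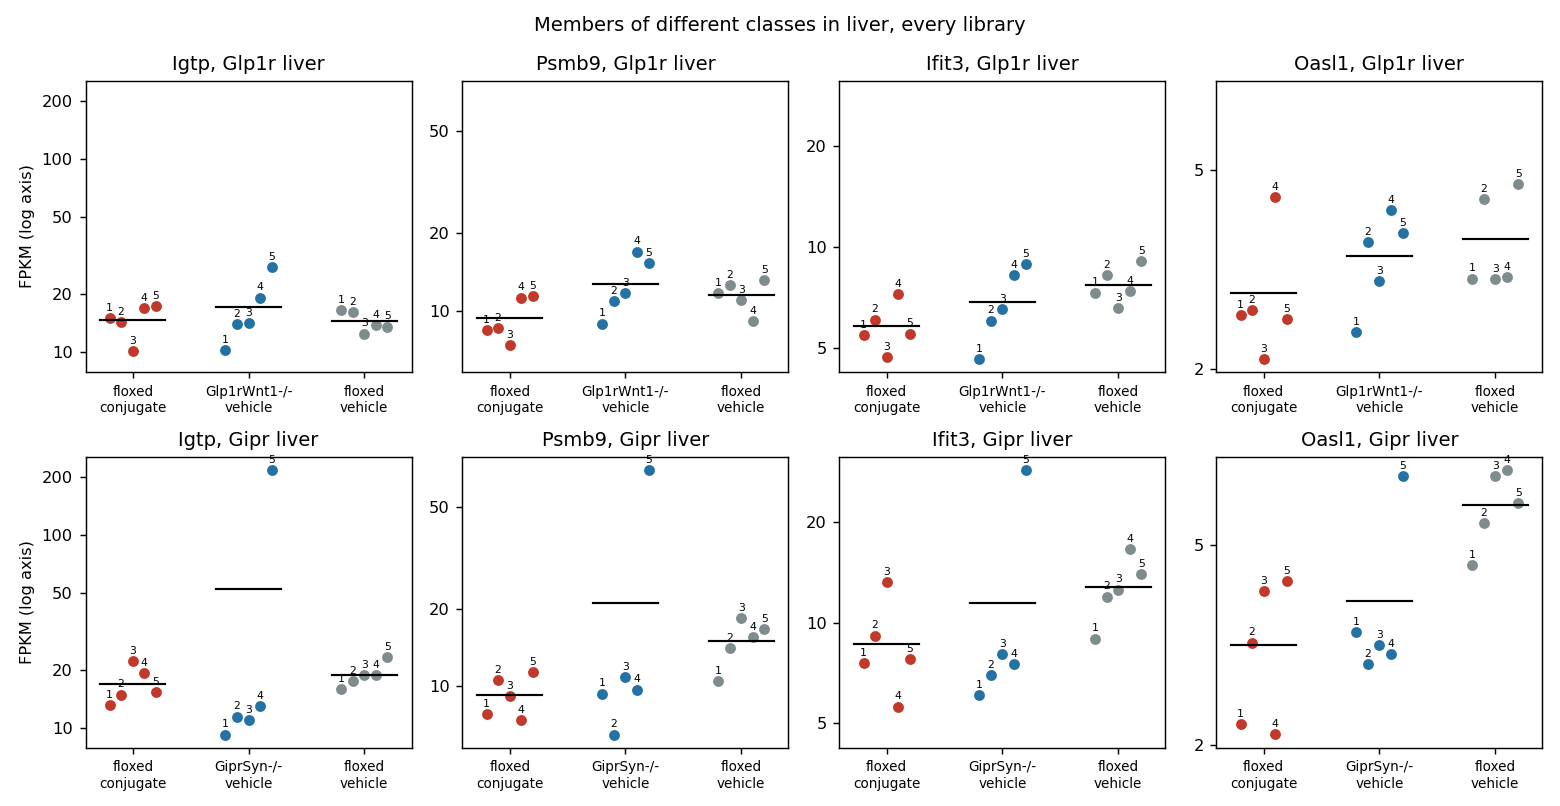
FPKM (log axes, shared within a gene) of Igtp, Psmb9, Ifit3 and Oasl1 in each liver library (points, numbered by replicate; lines are group means), with the Glp1r line above and the Gipr line below. In the Gipr line the first 4 knockout livers lie below every vehicle liver for Igtp, Ifit3 and Oasl1, and replicate 5 reaches 217 FPKM for Igtp, whereas Oasl1 there is 6.89 FPKM, within the vehicle range.

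In liver of Glp1rfl/fl mice the conjugate also went with lower values of most members. Of the 35 tested, 28 had a fold change below 0, with a median of -0.25, against 46.8% of all 10858 genes and a median of 0.01. Called lower was 1 member, against 4.69% of all genes, and none was called higher, against 5.68%. Ifih1 was 5.85, 5.17, 5.43, 6.12 and 5.20 FPKM in the conjugate livers, against 6.26, 7.56, 6.62, 6.41 and 7.24 FPKM in the vehicle livers. The groups did not overlap, as for 4.02% of all genes in the lower direction, though the highest conjugate liver and the lowest vehicle liver were close. The log2 fold change was -0.25 ± 0.07, with an adjusted p of 0.0401 by limma, and leaving out any of conjugate replicates 1, 2, 3 and 5, knockout replicate 2 or vehicle replicates 2 to 5 ended the call with adjusted p of 0.0507 to 0.106.

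A further 9 members of this contrast had an unadjusted p under 0.05, all lower, which with Ifih1 makes 10 of 35 against 27.0% of all genes. They were Dhx58, which encodes the RIG-I-like receptor LGP2, Ifit1, Ifit3, Ifit3b, Isg15, Usp18, Rsad2, Cmpk2 and Trim30a. Usp18, which removes ISG15 from proteins and damps the type I receptor, was at -0.48 ± 0.17 and Rsad2 at -0.43 ± 0.14, with adjusted p of 0.0897 and 0.0568 by limma. By class the medians were -0.44 for Isg15 and Usp18, -0.33 for the Ifit genes, -0.12 for the GTPases, -0.06 for antigen processing and 0.02 for the transcription factors. In this table depth and treatment cannot be told apart, and with the estimated depth as a term no member and none of the 10858 genes was called (0.00%) while all 35 members were below 0, with a median of -0.88.

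Glp1rWnt1-/- livers given vehicle showed no member past the threshold, and no gene among the 10858 tested was called (0.00%). No member had an unadjusted p under 0.05, against 9.65% of all genes, and 22 of 35 had a fold change below 0 against 67.0% of all genes. Ifi47, encoding an IRG family GTPase, had the smallest p, with 5.10, 6.09, 5.41, 10.1 and 9.68 FPKM in the knockout livers, against 5.01, 5.71, 5.14, 5.19 and 5.98 FPKM in the vehicle livers. Its fold change was 0.32 ± 0.16 (adjusted p = 0.536 by limma), and replicates 4 and 5, the 2 knockout livers with the highest member scores, lay above every vehicle liver. Ifi44 was 0.428, 0.772, 0.749, 1.07 and 1.08 FPKM in the knockout livers, against 0.918, 1.27, 0.973, 1.25 and 1.48 FPKM in the vehicle livers. It was at -0.27 ± 0.13, with an adjusted p of 0.554 by limma, and the groups overlapped.

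Across both lines 28 of the 35 members tested in both livers had fold changes below 0 with the conjugate in each line, and 2 were above 0 in each. The share of all genes below 0 in both lines was not computed, so these counts have no background beside them. In the single contrasts 46.8% of all genes in the Glp1r line and 56.4% in the Gipr line were below 0. The effect of the conjugate did not pass a test of the difference between the lines for any member or any of the 11419 genes (0.00% called, interaction term in limma), and the members' unadjusted p was under 0.05 in none of 37, against 5.75% of all genes. The difference, Gipr line minus Glp1r line, ranged from -0.50 to 0.20 over the members.

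Scores of cell type marker lists also differed between the same livers, with no adjusted p under 0.05. The adipocyte list scored 1.32 to 1.91 in Glp1rfl/fl conjugate livers and 1.95 to 2.21 in their vehicle livers, and 1.31 to 2.26 in Giprfl/fl conjugate livers, 1.37 to 1.64 in GiprSyn-/- livers and 2.30 to 2.46 in their vehicle livers. In livers of the Gipr line its genes Cidec, Fabp4 and Lipe reached 72.5, 36.6 and 12.1 FPKM. Adipoq, Plin1 and Lep reached at most 3.36, 0.95 and 0.47 FPKM there. Which cells carry this score in liver was not tested. The hepatocyte list was higher by 0.26 with the conjugate in the Gipr line and by 0.22 in GiprSyn-/- livers. These 5 differences had the smallest p that the design allows (exact permutation p = 0.00794, two-sided, adjusted over 80 list comparisons 0.0794). The Kupffer cell list averaged 2.86 in Glp1rfl/fl conjugate livers and 3.36 in their vehicle livers (exact permutation p = 0.151, two-sided, adjusted 0.525), and 4.34 in Giprfl/fl conjugate livers and 4.14 in their vehicle livers (exact permutation p = 0.373, two-sided, adjusted 0.806). The exocrine pancreas list varied widely among the livers of the Gipr line. It scored 0.947 to 9.86 in conjugate livers, 0.955 to 8.503 in GiprSyn-/- livers and 0.772 to 9.005 in vehicle livers, and averaged 2.52 in GiprSyn-/- livers and 5.74 in vehicle livers (exact permutation p = 0.127, two-sided, adjusted 0.462). Among the GiprSyn-/- livers replicate 1 alone was high in it, and replicate 5 scored 0.955. With this score as a term the call of Oasl1 with the conjugate held (adjusted p = 0.0393 by limma), and Rsad2 was called lower in GiprSyn-/- livers, where 11% of all genes were. The part of the other lists in the members' values was not tested.

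**Figure D4:**
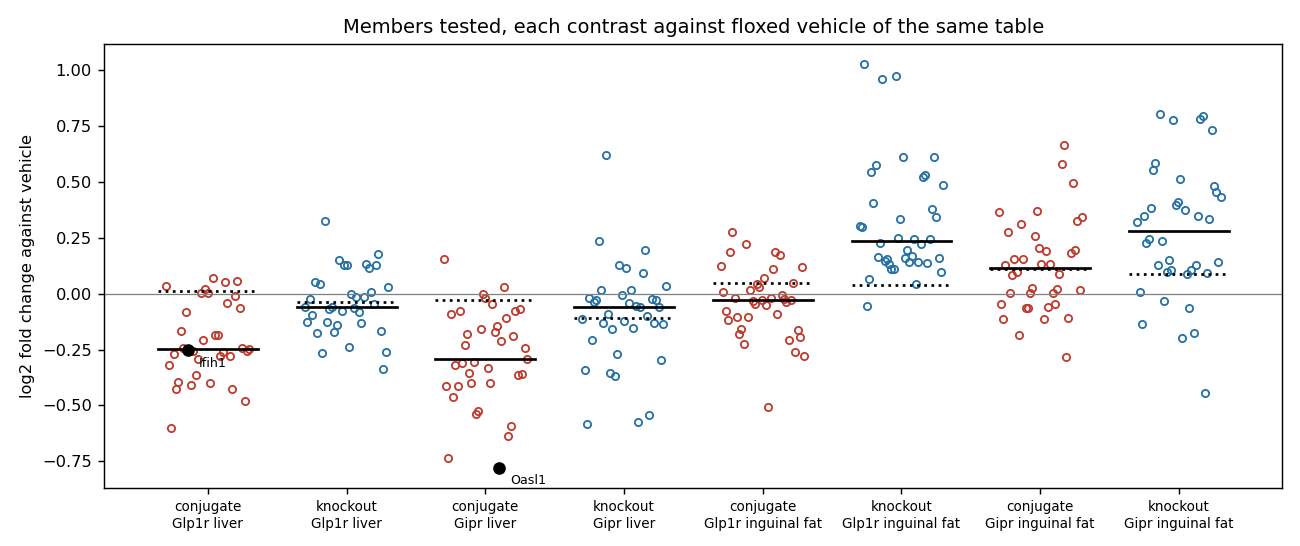
Log2 fold change of each tested member (points) in the 8 contrasts against floxed vehicle of the same table, with the median of the members as a solid line and the median of all genes tested as a dotted line. Filled points mark Ifih1 and Oasl1, the members called. The members' median lies below that of all genes for the conjugate in both livers and above it for the knockouts in both fat tables.

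Levels in vehicle mice differed between the tissues member by member. The tables were normalised separately, so this is a description. In both lines 17 of the 39 members were higher in every fat library than in every liver library, where 57.7% of 13741 expressed genes were, and 2, Bst2 and Oasl1, were lower in every fat library, where 13.8% of genes were. Gbp2 averaged 27.9 ± 3.07 FPKM in Glp1rfl/fl fat and 2.47 FPKM in Glp1rfl/fl liver, 11.3-fold, and Gbp5 14.3-fold. Bst2, whose product tetherin holds budding virus at the cell surface, averaged 53.0 FPKM in fat and 125 FPKM in liver of the same group, the highest level of any member in liver per length of transcript. Oasl1 averaged 1.73 FPKM in fat and 3.63 FPKM in liver.

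In inguinal fat the members were mostly higher in knockouts than in floxed vehicle mice, but none passed the test. In Glp1rWnt1-/- fat 37 of 38 members had a fold change above 0, with a median of 0.24 against 0.04 for all 12686 genes, of which 38.4% were below 0. No gene was called in this contrast (0.00%) by limma, and 4 members had an unadjusted p under 0.05, all higher, against 4.67% of all genes. The GTPases had a class median of 0.58, antigen processing of 0.53 and the Ifit genes of 0.12.

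Cxcl10 had the smallest p among them. It was 4.78, 2.70, 5.89, 8.84 and 4.69 FPKM in Glp1rWnt1-/- fat, against 1.61, 3.01, 1.53, 1.87 and 2.08 FPKM in vehicle fat, with a log2 fold change of 1.03 ± 0.21 and an adjusted p of 0.931 by limma. All knockout libraries but replicate 2 lay above every vehicle library. Igtp was 18.2, 11, 22.1, 37.3 and 20.1 FPKM in Glp1rWnt1-/- fat, against 10.02, 21.1, 5.89, 7.35 and 9.42 FPKM in vehicle fat, at 0.98 ± 0.31 and an adjusted p of 0.983 by limma. Vehicle replicate 2 was the exception among its group, and it was also the vehicle library with the B cell score above 5, at 6.19. Knockout replicate 4, highest for both genes, had a B cell score of 1.03.

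In GiprSyn-/- fat 32 of 38 members were above 0, with a median of 0.28 against 0.09 for all 13604 genes, of which 38.7% were below 0, 6.61% were called higher and 5.67% lower. No member was called by limma, and 9 had an unadjusted p under 0.05 in the higher direction and 1 in the lower, against 31.1% of all genes in either. Irf9, whose product binds DNA in a complex with STAT2, was 26.3, 17.8, 18.5, 18 and 29.9 FPKM in GiprSyn-/- fat, against 14.5, 18, 15.7, 16.1 and 16 FPKM in vehicle fat. Its fold change was 0.41 ± 0.15, with an adjusted p of 0.0791 by limma. Usp18 was 9.66, 7.56, 6.83, 5.003 and 10.1 FPKM in GiprSyn-/- fat, against 4.80, 5.92, 4.83, 5.31 and 5.65 FPKM in vehicle fat, at 0.46 ± 0.16 and an adjusted p of 0.0809 by limma. In both genes replicates 1 and 5 of the knockouts were highest, the libraries with B cell scores of 5.98 and 5.96.

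The class medians in GiprSyn-/- fat were 0.78 for antigen processing, 0.55 for the GTPases, 0.40 for the transcription factors, 0.10 for the Ifit genes and 0.02 for the oligoadenylate synthetases. Igtp was 32.1, 19.4, 20.6, 20.6 and 73.9 FPKM in GiprSyn-/- fat, against 14, 22.6, 14.6, 17.9 and 14.4 FPKM in vehicle fat. Replicate 5 was thus highest again, and whether it came from the same mouse as the liver library of that number cannot be told from the labels. This library and conjugate fat replicate 5 are of the higher number series and had the highest estimated depths in fat, 64.4 and 56.3 megafragments. Without these libraries the median over the members in GiprSyn-/- fat was 0.13, against 0.06 for all genes. Then 31 of 38 members were above 0 and none was called, where 3.67% of all genes were called higher. Rsad2 went the other way, at 5.69, 4.76, 6.996, 5.76 and 6.43 FPKM in GiprSyn-/- fat, against 7.58, 7.82, 6.76, 9.83 and 10.4 FPKM in vehicle fat, with a fold change of -0.44 ± 0.16 and an adjusted p of 0.0850 by limma. Leaving out knockout replicate 4, the library with the lowest Usp18, gave 4 members called higher, Dhx58, Psmb8, Psmb9 and Usp18, against 7.36% of all genes, and leaving out conjugate replicate 1 gave Rsad2 called lower, against 6.84% of all genes.

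Scores of several marker lists differed between the same fat libraries, with no adjusted p under 0.05. The endothelial list scored 4.99 to 5.49 in GiprSyn-/- fat, 5.14 to 5.65 in Giprfl/fl conjugate fat and 5.67 to 5.89 in vehicle fat, with differences of -0.42 and -0.35 and no overlap (exact permutation p = 0.00794 for each, two-sided, adjusted over 80 list comparisons 0.0794). The Kupffer cell list, named for macrophages of liver, averaged 2.37 in GiprSyn-/- fat (exact permutation p = 0.0159, two-sided, adjusted 0.127), 1.98 in conjugate fat (exact permutation p = 0.0317, two-sided, adjusted 0.169) and 1.28 in vehicle fat. In fat its genes do not mark Kupffer cells. The macrophage list went the other way in GiprSyn-/- fat, at 6.45 against 6.68 in vehicle fat (exact permutation p = 0.262, two-sided, adjusted 0.698). It was 6.78 in conjugate fat (exact permutation p = 0.571, two-sided, adjusted 0.92). The dendritic cell list averaged 2.14 in GiprSyn-/- fat and 1.37 in vehicle fat (exact permutation p = 0.0317, two-sided, adjusted 0.169). The exocrine pancreas list was low in this table, at 0.762 in GiprSyn-/- fat and 0.998 in vehicle fat (exact permutation p = 0.00794, two-sided, adjusted 0.0794). The B cell list scored 3.26 to 5.98 in GiprSyn-/- fat and 0.887 to 4.32 in vehicle fat, with a mean difference of 2.71 (exact permutation p = 0.0317, two-sided, adjusted over 80 list comparisons 0.169). The T and natural killer cell list scored 2.37 to 4.51 in GiprSyn-/- fat and 1.25 to 3.53 in vehicle fat (exact permutation p = 0.0317, two-sided, adjusted 0.169). Without the 3 libraries of this line whose B cell score was above 5, namely conjugate replicate 1 and knockout replicates 1 and 5, the median over the members in GiprSyn-/- fat was 0.07 and 25 of 38 were above 0, with none called, and in conjugate fat of this line the median was 0.07, against 0.11 with all libraries. The GiprSyn-/- libraries kept had B cell scores of 3.26 to 3.79, and the vehicle libraries other than replicate 2 had 0.887 to 1.65. Leaving out the highest libraries thus did not level the B cell list between these groups. In Glp1rWnt1-/- fat the median without the libraries rich in B cell transcripts was 0.32, against 0.24 with all libraries, and 37 of 38 members were above 0 in both. In these reduced fits the median of all genes was 0.04 in GiprSyn-/- fat, 0.08 in Giprfl/fl conjugate fat and 0.03 in Glp1rWnt1-/- fat. The part of these cells in the members' values was not tested.

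**Figure D5:**
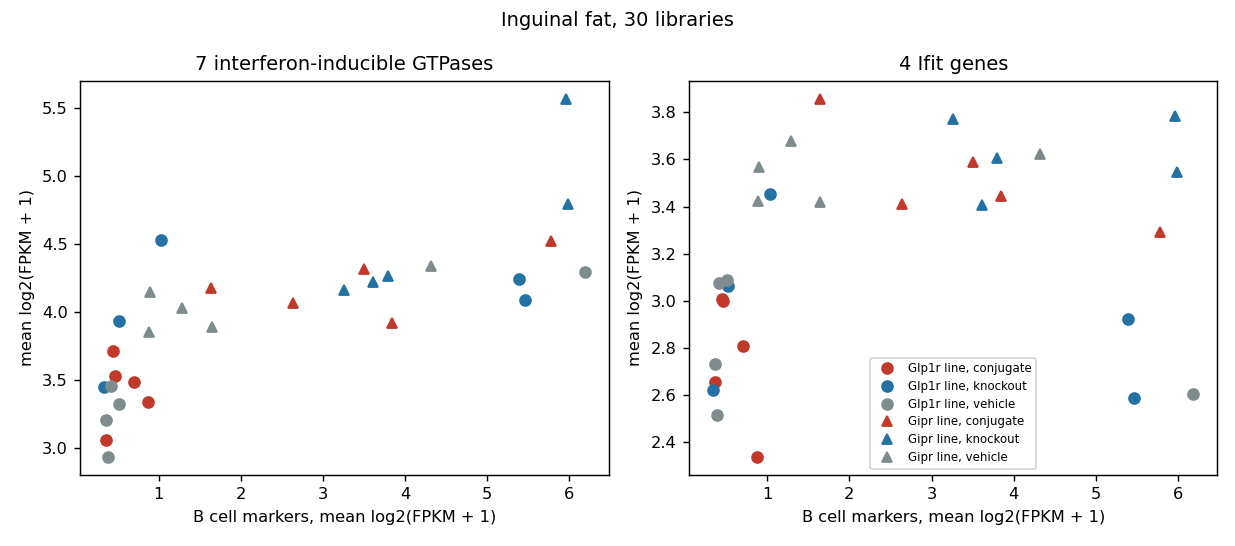
Mean log2(FPKM + 1) of the 7 GTPase genes (left) and of the 4 Ifit genes (right) against the mean of the 10 B cell markers in the 30 inguinal fat libraries (circles, Glp1r line; triangles, Gipr line; colours, groups). The GTPase score is highest, at 5.57, in GiprSyn-/- replicate 5 with a B cell score of 5.96, and of the 6 libraries with B cell scores above 5, 3 are among the 6 highest for the GTPases and 1 for the Ifit genes.

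The conjugate left the members in fat without calls. In Glp1rfl/fl fat 14 of 38 members were above 0 and 24 below, where 40.1% of all genes were below, with a median of -0.03 against 0.05 for all genes, of which 2.31% were called higher and 1.08% lower, and 1 member had an unadjusted p under 0.05, against 17.9% of all genes. This balance turned without vehicle replicate 2, the vehicle library with the B cell score of 6.19: 27 of 38 members were then above 0, with a median of 0.13 and none called. All genes moved likewise, to a median of 0.12 with 29.9% below 0, and 5.25% were called higher and 3.41% lower. The turn is thus not particular to the members. Ifih1 was 6.25, 5.89, 6.29, 7.11 and 6.15 FPKM in conjugate fat, against 5.69, 5.70, 4.60, 4.86 and 5.60 FPKM in vehicle fat. The groups did not overlap, as for 3.20% of all genes in the higher direction, and the fold change was 0.22 ± 0.09 with an adjusted p of 0.193 by limma. Its direction in fat was thus opposite to that in liver of the same line, a difference that was not tested. Gbp2 was 36, 28, 38.6, 38.8 and 29.6 FPKM in conjugate fat, against 33, 26.3, 24.9, 27.8 and 27.6 FPKM in vehicle fat, at 0.28 ± 0.18 and an adjusted p of 0.474 by limma. Conjugate replicate 5 had a macrophage score of 8.15, where the other 14 libraries of the table had 5.19 to 6.41.

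In Giprfl/fl fat with the conjugate 28 of 38 members were above 0, with a median of 0.11, equal to that of all genes, of which 4.26% were called higher and 2.76% lower. Fold changes were below 0 for 33.1% of all genes. An unadjusted p under 0.05 was reached by 1 member, against 24.1% of all genes. Psmb9 was 46.9, 20.9, 24.2, 21 and 37.0 FPKM in conjugate fat, against 17.6, 18, 16.4, 15.2 and 21 FPKM in vehicle fat, at 0.67 ± 0.29 and an adjusted p of 0.180 by limma. Dhx58 was 6.69, 7.04, 6.28, 5.72 and 5.65 FPKM in conjugate fat, against 5.72, 4.60, 4.66, 5.04 and 5.002 FPKM in vehicle fat, at 0.28 ± 0.13 and an adjusted p of 0.214 by limma. The conjugate effect in fat did not differ between the lines by the interaction test for any member, with 0.00% of 13749 genes called, and no member had an unadjusted p under 0.05, against 3.96% of all genes.

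Around the members, the genes of the interferon receptors and kinases were called in no contrast, with 8 of 9 tested in each. Ifnar1 was 7.26 to 11.4 FPKM in liver and 14 to 28.8 FPKM in fat, and Ifnar2 was 24.1 to 50.03 FPKM in liver and 48.7 to 82.6 FPKM in fat. Ifngr1 was 6.04 to 18.2 FPKM in liver and 112 to 231 FPKM in fat, Ifngr2 was 3.58 to 8.11 FPKM in liver and 7.60 to 17.2 FPKM in fat, and Ifnlr1, a subunit of the interferon lambda receptor, was at most 0.148 FPKM in liver and 0.838 FPKM in fat. The 10 interferon genes listed never met the filter. Irf1 was called in no contrast. Its fold change closest to the threshold was 0.56 ± 0.19 in GiprSyn-/- fat (adjusted p = 0.0640 by limma).

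Of the other pathway genes, 2 of 6 further signalling factors were called with the conjugate in Glp1rfl/fl liver, both higher. Of all genes in that contrast 5.68% were called higher and 4.69% lower. Irf3, which carries the signal of nucleic acid sensors, was 29.2 ± 0.926 FPKM in conjugate livers and 23.6 ± 0.778 FPKM in vehicle livers (SD, n = 5 each; 0.30 ± 0.04, adjusted p = 0.00317 by limma), and Irf2, a partly repressive factor, rose by 0.24 ± 0.07 (adjusted p = 0.0483 by limma). Ikbke, a kinase upstream of IRF3, was called lower there at -0.51 ± 0.14, the only call among 8 tested sensing genes, and Irf2bp1 higher at 0.24 ± 0.06, the only one among 6 negative regulators. In GiprSyn-/- liver Irf5 was called higher at 0.69 ± 0.20, where 1.44% of all genes were. It was 11.8 FPKM in replicate 5, the highest of the 15 libraries, and 4.91 to 7.97 FPKM in the other knockout livers. For genes outside the members, here and below, calls in livers of the Gipr line are given only with that library included.

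Among 58 other interferon-induced genes, Lgals9, encoding galectin-9, was called lower in 3 liver contrasts, at -0.34 ± 0.10 and -0.48 ± 0.12 with the conjugate in the Glp1r and Gipr lines and -0.45 ± 0.12 in GiprSyn-/- liver. Cxcl11, a further CXCR3 ligand, was lower in the Gipr line with the conjugate at -0.41 ± 0.08 and in the knockout at -0.35 ± 0.08, contrasts that share their vehicle livers. Parp12 was lower and Ifitm3 higher with the conjugate in Glp1rfl/fl liver, at -0.33 ± 0.09 and 0.30 ± 0.09, and Samd9l was lower in GiprSyn-/- liver at -0.66 ± 0.18. With the conjugate in Glp1rfl/fl liver 1 of 50 such genes was higher and 2 were lower, against 5.68% and 4.69% of all genes. In Giprfl/fl liver with the conjugate 2 of 53 were lower, against 3.17%, and in GiprSyn-/- liver 3 of 53, against 8.92%. In fat, Slfn9 was lower with the conjugate in the Gipr line at -0.54 ± 0.15, where 2.76% of all genes were. In GiprSyn-/- fat 3 of 56 were higher, against 6.61% of all genes. They were Ly6e at 0.53 ± 0.14, Nmi at 0.47 ± 0.14 and Ifitm1 at 1.204 ± 0.37. Lgals3bp was lower there at -0.50 ± 0.16, as were 5.67% of all genes. These counts lie near or below the shares of all genes, so they single out no trait of this list. Of 13 class I presentation genes Psme1, a proteasome activator subunit, was called, higher in GiprSyn-/- fat at 0.58 ± 0.17. The GiprSyn-/- fat group includes 2 of the 6 fat libraries with a B cell score above 5.

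Among the genes that varied most like the members, by Pearson correlation of log2(FPKM + 1) after removing group means over the 30 libraries of a tissue, were, in liver, Gbp6 (r = 0.978), Uba7 (0.968), H2-T22 (0.961) and Gbp10 (0.958). The liver values share GiprSyn-/- replicate 5, without which they were 0.945, 0.917, 0.90 and 0.891. In fat they were H2-Q4 (0.903), Tgtp2 (0.886), Gm12250 (0.886), Gbp4 (0.881) and Irf1 (0.880). Without GiprSyn-/- replicate 5 and Glp1rfl/fl vehicle replicate 2, the fat libraries farthest from the median of the member score, these values were 0.797 to 0.83.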

How the data were processed

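Poly(A) RNA of liver and inguinal fat was sequenced from TruSeq stranded libraries on a NovaSeq X, per the labels' protocols. The deposited values are FPKM, computed by the authors with RSEM per the submitters' processing notes. Aligner, build, annotation and software version: not given in the sources used here. Each of 4 tables was fitted in R 4.3.3 with limma 3.58.1 as log2(FPKM + 1), with 3 groups of 5 libraries and a mean-variance trend, for genes at 1 FPKM or more in at least 5 of 15 libraries. Errors with fold changes are SE and errors with FPKM are SD. The labels call the 5 libraries of a group biological replicates without naming the mice. The p-values therefore set group differences against the estimated spread between these samples.

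The members, gene lists and rules were chosen with earlier results of these data known. Values per library are given for called members, or for the 2 members with the smallest p where none was called. Irf1 and the receptor genes are given by ranges or selected values. One pathway gene is not reported here. Up to 3 called genes of each other pathway list are named. Other members were named after their values were seen. Marker list scores are means of log2(FPKM + 1), compared by exact permutation over 252 assignments, whose smallest two-sided p is 0.00794, adjusted over 80 comparisons with scipy 1.17.1. Depth was estimated with Python 3.11.15 from low FPKM values, taking most to be whole fragments over transcript lengths of 1500 to 6000 bases less 200 bases, so it compares libraries and gives no counting interval. Promoters came from RefSeq, GRCm38.p6, and transcript stretches from GENCODE M21. The fit was tested on simulated data. Alternatives were a pseudocount of 0.1, no filter or a stricter filter, 2 rescalings, the replicate block, 2-group fits, each library left out, libraries rich in B cell transcripts left out, the later library numbers left out and a pancreas term. The depth term, the B cell limit of 5 and the rescalings without GiprSyn-/- liver replicate 5 were chosen after seeing the data.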

Additional observations from a re-analysis of the deposited data

Results flagged for a closer look

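In groups of 5 libraries, a library was singled out where its gap to the nearest other was large for the range of the group by Dixon's criterion, which chance alone meets in about 1 in 20 groups. Of 40 groups examined, for the member score or for genes named for their p, 4 met it, 3 of them at 1 library. The vehicle livers of the Gipr line enter more than once for Oasl1. The readings share libraries and are not independent, so 1 in 20 is no expected rate for them. In GiprSyn-/- liver replicate 5 the mean log2(FPKM + 1) over the members was 3.99, Oasl1 was 6.89 FPKM and Rsad2 was 3.11 FPKM, each far above the other 4 knockout livers. Taken over all 39 members, 38 met the criterion at this library, and in no other group did more than 15 members meet it. In Glp1rfl/fl vehicle fat replicate 2 held Igtp at 21.1 FPKM, far above the other 4 vehicle libraries, and was the vehicle library with the B cell score of 6.19. In that group 13 members met the criterion at replicate 2.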

How the results depend on the processing

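Counts of members called are given with the setting that moved them. In the liver contrasts all these calls were lower, and percentages in brackets are the shares of all genes called lower. With the conjugate in Glp1rfl/fl liver the count of 1 became 2 with a pseudocount of 0.1 (4.67%) and with median of ratios (5.84%). It became 0 with no filter (1.04%), a common sum (3.84%) or the depth term (0%), and 4 in the fit of 2 groups (4.9%). When 1 library was left out it was 0 to 3 (1.98% to 5.72%), with 3 without conjugate replicate 4 (2.84%). With the conjugate in Giprfl/fl liver the count of 1 became 0 with no filter (0.673%), a common sum (1.8%) or without the later library numbers (2.85%), and 2 with median of ratios (2.48%). When 1 library was left out it was 0 to 6 (1.12% to 6.13%), with 6 without GiprSyn-/- replicate 5 (3.7%). Without GiprSyn-/- replicate 5 it was 6 with median of ratios (3.08%) and 3 with a common sum (2.79%). In GiprSyn-/- liver the count of 0 became 1 with a stricter filter (8.97%), a common sum (15.2%), the fit of 2 groups (12.5%) or the pancreas term (11%). When 1 library was left out it was 0 to 14 (5.18% to 13.1%). It was 14 without replicate 5 (13.1%) and 1 without conjugate replicate 3 (9.57%) or 4 (8.61%). Without replicate 5 it was 6 with median of ratios (3.82%) and 27 with a common sum (30.8%). In GiprSyn-/- fat the count of 0 became 0 to 4 when 1 library was left out. It was 4, all higher, without knockout replicate 4, where 7.36% of all genes were called higher. The count of members called is meant throughout. It stayed at 0 in the other contrasts and interaction tests under the alternatives run. Except where the construction shows it, the cause was not tested.

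The labels do not say whether replicate numbers pair the libraries. Correlations of same-numbered deviations from the group means ranged from -0.843 to 0.571 over the contrasts, and in none were all 5 over 0.1. Such correlations cannot decide whether the samples were paired, and the main fit used no replicate block. With the replicate block, 5 of 35 members were called lower with the conjugate in Glp1rfl/fl liver, 2 of 37 lower in GiprSyn-/- liver and 2 of 38 higher in GiprSyn-/- fat, against 6.11%, 9.67% and 9.45% of all genes. In each contrast at most 3 of the 5 libraries correlated best with their own number.

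Leaving out all libraries rich in B cell transcripts left 1 knockout library in GiprSyn-/- fat, assumed to vary like the other groups. The median over the members was then 0.14, against 0.05 for all genes, and 31 of 38 members were above 0. The values near 1 FPKM, such as those of Ifit3b, Rsad2 and Mx2, have fold changes damped by the pseudocount, and with no counts their counting error is not known.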
